A study of Rattus norvegicus with 4 samples.

Results

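The genes described here encode cytokines, chemokines and their receptors, the secreted signals and cell-surface proteins through which immune cells, glia and neurons communicate, with 3 members of the NF-kappaB pathway. They were chosen by symbol among the rows that carry a gene ID: the CC and CXC chemokines and their receptors, the interleukins and their receptors, the TNF and TNF receptor superfamilies, the TGF-beta ligands with Tgfbr1 and Tgfbr2, and Tnf, Csf1, Cx3cl1, Nfkb1, Nfkbia and Rela. The rule gave 114 genes of the 17445 rows in the deposited files, of which 13984 rows have a gene ID. Of the 114 genes, 85 were listed in all 4 libraries, 12 for males only and 17 for females only. A mean of at least 1 FPKM over the 4 libraries was reached by 39 of them, and these 39 entered the tests together with the other rows at that level, 13542 rows in all.

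RNA was sequenced from the hippocampus of newborn Wistar rats (postnatal day 1) whose mothers had received bisphenol A (BPA), an estrogen-like chemical of plastics, at 5000 µg per kg of body weight each day from gestation day 1 until birth, or the vehicle alone. There was 1 library for each of control males, BPA males, control females and BPA females, and each library is a pool of 3 hippocampi, so that no group has a replicate library. The dams were 10 weeks old according to the sample records. All 6 hippocampal neuron markers were detected in every library, from Neurod6 at 135 to 161.3 FPKM down to Wfs1 at 2.53 to 3.47 FPKM. Of these, 3 (Slc17a7, Prox1 and Wfs1) were lower in both BPA libraries than in both controls, where 19.9% of all rows tested were. Levels are FPKM, in which a gene's fragments are divided by the length of its model and by the depth of its library, and low values fell on steps that correspond to 8660000 to 8880000 fragments per library. Both BPA libraries can be set against both controls, with the sexes as the only replicates, while within a sex 1 library stands against 1 other.

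Chemokines bind G protein-coupled receptors and direct the movement of cells. In the developing hippocampus, Cxcl12 and its receptor Cxcr4 guide dentate granule cell precursors and interneurons, and Cx3cl1 and the ligands of the Csf1 receptor, Il34 and Csf1, act on microglia. Interleukins signal through paired receptor subunits, TNF family ligands through trimeric receptors that lead to NF-kappaB, and TGF-beta ligands through the kinase receptors Tgfbr1 and Tgfbr2.

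By mean level, the most abundant genes of the set were Cxcr4, Tnfrsf21, Ccl27, Il34, Tnfrsf19, Cxcl12, Cxcl14, Cx3cl1, Rela and Tnf. Only these 10 genes had a mean of at least 10 FPKM, and they held 62.3% to 63.9% of the summed FPKM of the set in each library. The median level of the 39 genes tested was 5.20 FPKM in control males, 5.15 in BPA males, 4.52 in control females and 4.39 in BPA females. Over all rows tested the medians were 10.6, 10.7, 10.7 and 10.3 FPKM in the same order.

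**Figure D1:**
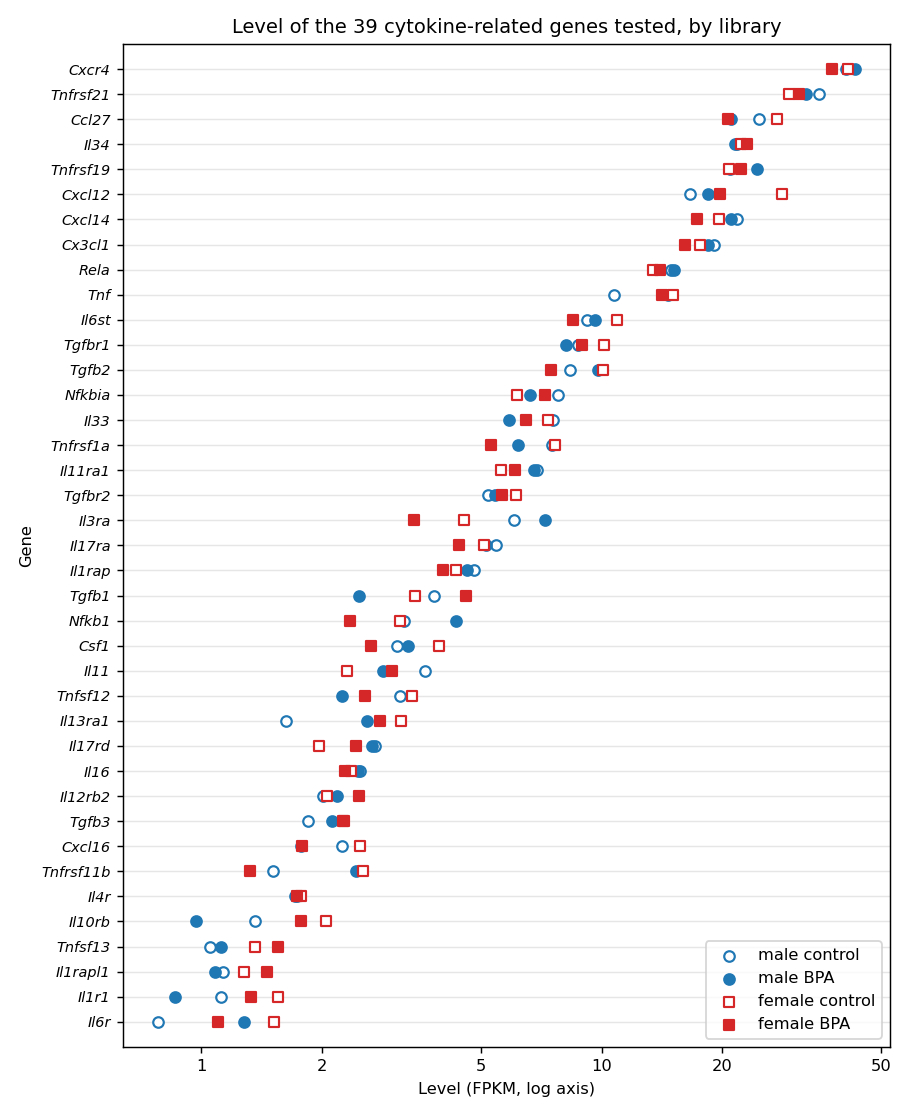
Level in FPKM (log axis) of each of the 39 genes with a mean of at least 1 FPKM, with circles for male and squares for female libraries, open for control and filled for BPA. Cxcr4 was at the top with 37.6 to 43.0 FPKM, and the points of most genes lie close together compared with the range between genes.

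With both sexes combined, no gene of the set passed the test between BPA and control. In limma on log2(FPKM + 1), 2 BPA libraries against 2 control libraries, 0 of the 39 genes tested passed a Benjamini-Hochberg adjusted p of 0.05 over all rows, and the smallest adjusted p was 0.973. The background was 0 of 13542 rows (0%). At an unadjusted p under 0.05, limma gave 1 of the 39 genes (Ccl27), or 2.56%, where 4.7% of all rows passed. An exact permutation of 2 libraries against 2 cannot reach a two-sided p below 0.333. Without the male or the female BPA library, Ccl27 was no longer at an unadjusted p under 0.05, with its log2 fold change at -0.32 and -0.30 against -0.31 with all libraries, and without the female control library Tnf was there in its place.

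Within each sex the changes were small on the scale of log2(FPKM + 1). Among the genes with a mean of at least 1 FPKM in the pair of libraries compared, 0 of 39 in males and 0 of 41 in females had a log2 fold change beyond 1 in either direction, against 1.7% of all rows in males and 2.32% in females. Among the 39 genes tested, the largest absolute change was 0.47 in males, for Tgfb1, and 0.61 in females, for Tnfrsf11b. Of the 41 genes of the female pair, Cxcl17 had a change of 0.80, on 3 and 10 fragments. The scale makes changes of low genes come out too small. By the ratio of fragments, BPA to control, Il6r (1.65) changed more than Tgfb1 (0.648) in males. The 39 genes also had lower median levels than all rows, so the shares beyond 1 compare genes at different levels. The median log2 fold change of the 39 genes was -0.02 in males and -0.13 in females, and over all rows tested it was -0.0019 and -0.04. After quantile normalization the median of the 39 genes in females was -0.02, so that the lower female median depends on the scaling. In males 17 of the 39 were higher in BPA (43.6%, against 49.2% of all rows) and 22 lower. In females 13 were higher (33.3%, against 43.2% of all rows) and 26 lower, or 16 and 23 after quantile normalization.

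Both BPA libraries lay above both controls for 2 of the 39 genes, Tnfrsf19 and Il12rb2 (5.13%), where 13.8% of all rows did. Both lay below for 5 of them, Ccl27, Il33, Tnfrsf1a, Tnfsf12 and Cxcl16 (12.8%), where 19.9% of all rows did. Neither share is above the background. Without the female control library, the 2 BPA libraries lay on 1 side of the male control library for 24 of the 39 genes (61.5%), a criterion that is easier to meet with 3 libraries and that 67.4% of all rows met.

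**Figure D2:**
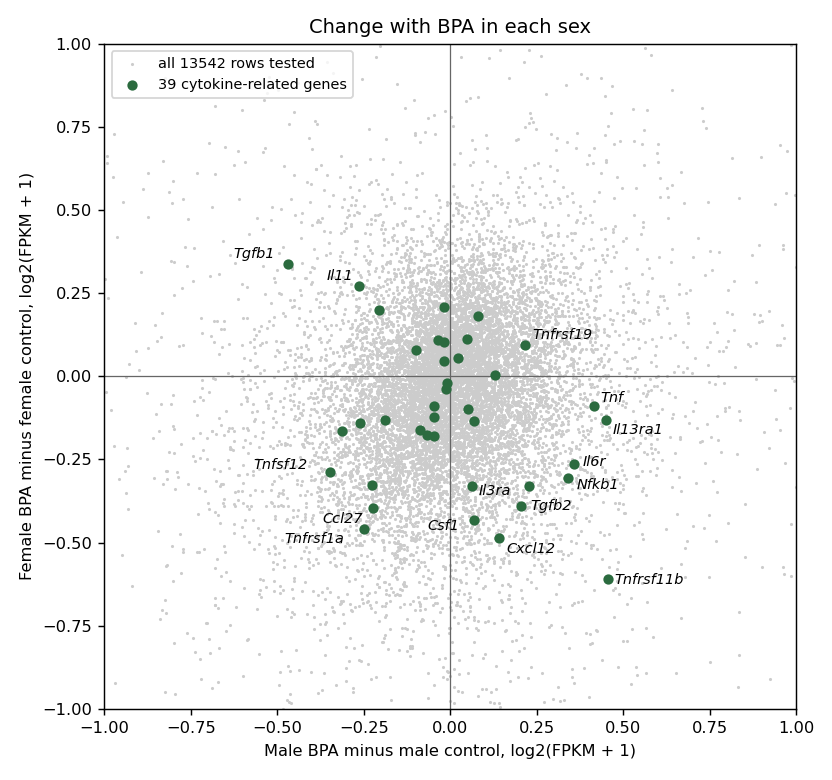
Change with BPA in females (vertical) against males (horizontal), each as a difference of log2(FPKM + 1) between 1 BPA and 1 control library, for the 39 genes (green) and all rows tested (grey, of which 460 rows with a change over 1 in a sex lie outside the axes). The 39 genes lie within 0.61 of 0 on both axes, and 20 of them (51.3%) have opposite signs in the sexes, as have 43.2% of all rows.

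Among the chemokine ligands, Cxcl12, the ligand of Cxcr4, was uneven between the female libraries. It was at 16.6 FPKM in control males, 18.4 in BPA males, 28.2 in control females and 19.8 in BPA females. The female control library thus stood above the other 3, which lay close together. The ratio of fragments, BPA to control and scaled to depth, was 0.704 in females (95% counting interval 0.619 to 0.8) and 1.11 in males (0.956 to 1.28). Intervals of this kind come from fragments recovered from the FPKM values and cover counting error only, not the spread between animals or pools.

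Cxcr4, the receptor, was the most abundant gene of the set, at 40.9, 43.0, 41.4 and 37.6 FPKM in control males, BPA males, control females and BPA females. Its control and BPA libraries overlapped, and its counting interval included 1 in both sexes. The ratio of Cxcl12 to Cxcr4 in FPKM was 0.681 in control females and between 0.407 and 0.526 in the other libraries.

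The higher Cxcl12 of the female control library went along with markers of the meninges and the vessel wall, tissues that are known to make Cxcl12. The summed level of the 7 marker genes (Col1a1, Col1a2, Dcn, Lum, Ptgds, Aldh1a2 and Slc6a13) was 76.9 FPKM in control males, 77.4 in BPA males, 318.7 in control females and 62.3 in BPA females. All 7 were highest in the female control library, and 6 of them were lower in BPA females by more than 1 on the log2 scale. None was at 0 in any library. Ptgds alone gave 209.3 of the 318.7 FPKM, and without it the sums were 48.0, 37.2, 109.4 and 44.2 FPKM. The 6 endothelial markers summed to 93.0, 89.5, 105 and 86.7 FPKM in the same order. The part of these markers in the level of Cxcl12 was not tested. In bulk tissue, fewer cells of a type and less RNA per cell cannot be told apart.

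**Figure D3:**
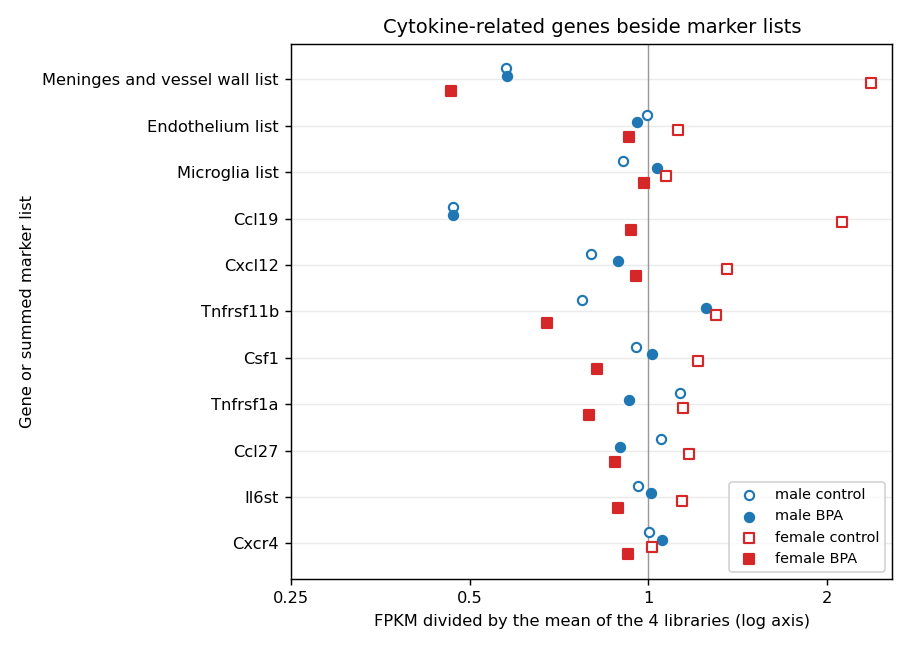
FPKM of 8 genes of the set and summed FPKM of 3 marker lists, each divided by its mean over the 4 libraries (log axis), with open symbols for control and filled symbols for BPA. The female control library (open squares) is far to the right for the meninges and vessel wall list and for Ccl19, and to a lesser extent for Cxcl12.

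Ccl27, known as a skin-homing chemokine of the receptor Ccr10, was at 24.7 FPKM in control males and 27.5 in control females, and at 21.0 and 20.6 FPKM in BPA males and females. Both BPA libraries were below both controls, by 0.22 on the log2 scale in males and 0.40 in females. limma gave a combined log2 fold change of -0.31 (standard error 0.113) with an unadjusted p of 0.0303 and an adjusted p of 0.973. In the rat annotation the gene overlaps Il11ra1 and a long noncoding RNA, and fragments of overlapping genes may be shared. Il11ra1, the Il11 receptor subunit, was at 6.89, 6.79, 5.59 and 6.08 FPKM in control males, BPA males, control females and BPA females, and its BPA and control libraries overlapped. Ccr10 had 3 to 7 fragments in each library.

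The other abundant chemokines were nearly level. Cxcl14, a chemokine made by interneurons among other cells, was at 21.8, 21.1, 19.7 and 17.3 FPKM in control males, BPA males, control females and BPA females. Cx3cl1, the membrane-bound neuronal ligand of the microglial receptor Cx3cr1, was at 19.1, 18.5, 17.7 and 16.2 FPKM in the same order. Both were a little lower in each BPA library than in its own control, and both counting intervals of each included 1. For both genes the 2 male libraries lay above the 2 female ones. Cxcl16, the ligand of Cxcr6, was far lower, at 2.24, 1.77, 2.49 and 1.78 FPKM, with both BPA libraries below both controls on 26 to 36 fragments.

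The chemokines that mark inflammation were at the limit of detection. Ccl2, Ccl3, Ccl4, Ccl5, Ccl7, Cxcl1, Cxcl9 and Cxcl10 were summed, with a gene not listed for a sex counted as 0 there. Ccl4, Cxcl9 and Cxcl10 were not listed for males, and Cxcl1 was not listed for females. Together the genes had 5 fragments in control males, 5 in BPA males, 23 in control females and 5 in BPA females. Ccl2, the monocyte attractant, had 1, 1, 5 and 0 fragments in that order, and Ccl3 had 3, 2, 3 and 1. Ccl5 had 0, 1, 4 and 1 fragments, and Ccl4, listed for females only, had 0 in control and 1 in BPA. Cxcl10, an interferon-induced chemokine also listed for females only, had 6 fragments in control and 0 in BPA, with a counting interval of the ratio of 0 to 0.842. Ccl19, a ligand of Ccr7, had 2 fragments in each male library, 9 in control females and 4 in BPA females. These fragments of control females stand beside the same high meninges and vessel wall markers (318.7 FPKM), whose part was not tested.

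**Figure D4:**
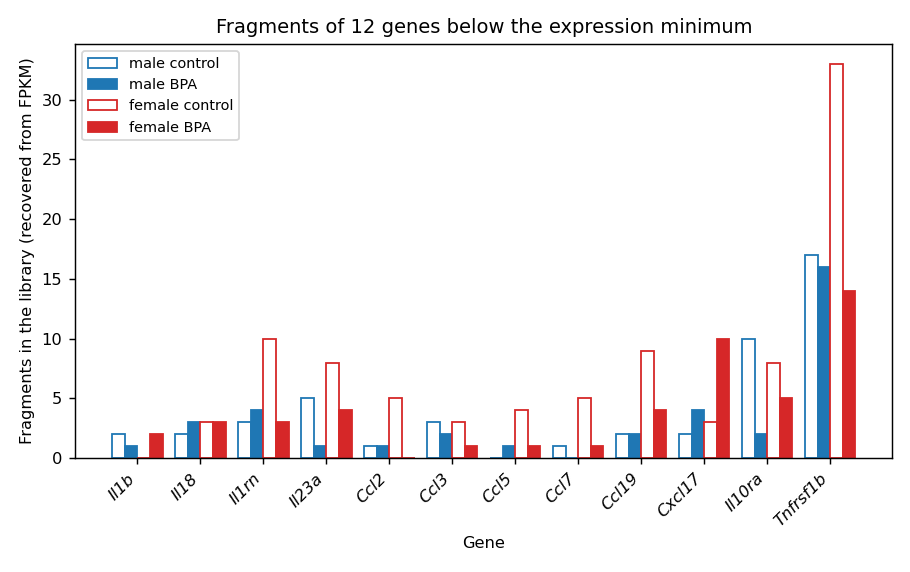
Fragments in each library for 12 genes with a mean under 1 FPKM, recovered from the FPKM values (open bars control, filled bars BPA). The interleukins and chemokines shown have at most 10 fragments in any library, and Tnfrsf1b stands out with 33 fragments in control females.

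Of the interleukin ligands, only Il34 was abundant. Il34 and Csf1 are both ligands of the Csf1 receptor, on which microglia depend, and Il34 is the one made mainly by neurons. Il34 was at 21.8 FPKM in control males, 21.5 in BPA males, 22.4 in control females and 23.1 in BPA females. The 4 libraries thus differed very little, with fragment ratios of 0.986 (0.877 to 1.11) in males and 1.03 (0.922 to 1.16) in females. Csf1 was at 3.08, 3.28, 3.92 and 2.65 FPKM, highest in control females and lowest in BPA females. Its ratio was 0.673 in females (0.51 to 0.886) and 1.07 in males (0.812 to 1.4). Il34 was 5.70 to 8.72 times as high as Csf1 in FPKM. The receptor Csf1r, a microglial marker outside the set, was at 7.75, 8.59, 9.26 and 8.43 FPKM, and the 11 microglial markers found of 12 summed to 63.5, 72.4, 75.0 and 68.7 FPKM.

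Il33, an alarmin stored in the nuclei of astrocytes and oligodendrocytes, was at 7.55 FPKM in control males and 7.36 in control females, and at 5.88 and 6.46 FPKM in BPA males and females. Both BPA libraries were below both controls, with a ratio of 0.779 in males (0.617 to 0.983) and 0.877 in females (0.696 to 1.1). limma gave a combined log2 fold change of -0.24 (adjusted p 0.973). Its receptor subunit Il1rl1 had 11, 3, 5 and 4 fragments in control males, BPA males, control females and BPA females. The 6 astrocyte and radial glia markers summed to 416.6 and 436.7 FPKM in control males and females. In BPA males and females they summed to 378.9 and 365.1 FPKM. Of the 6, 4 were lower in both BPA libraries than in both controls, where 19.9% of all rows were. The 5 oligodendrocyte lineage markers summed to 117.1 and 92.9 FPKM in control males and females. Their sums in BPA males and females were 89.5 and 76.4 FPKM, and 1 of the 5 was lower in both BPA libraries than in both controls. The part of either list in the level of Il33 was not tested.

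Il11, of the Il6 family, was at 3.61, 2.84, 2.31 and 3.00 FPKM in control males, BPA males, control females and BPA females, and its BPA and control libraries overlapped. Il16, a ligand of CD4, was at 2.28 to 2.49 FPKM in every library. The classical inflammatory interleukins were barely present. Il1b had 2, 1, 0 and 2 fragments and Il18 had 2, 3, 3 and 3 in the same order, while Il1a, Il6 and Il10 were not among the rows of the files used here. Il1rn, the Il1 receptor antagonist, had 3, 4, 10 and 3 fragments.

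The most abundant interleukin receptor subunit was Il6st, followed by Il11ra1 and Il3ra. Il6st encodes gp130, the common subunit of the Il6 family receptors, and was at 9.19, 9.65, 10.9 and 8.49 FPKM in control males, BPA males, control females and BPA females. The female control library was the highest and the female BPA library the lowest, with a ratio of 0.777 in females (0.696 to 0.867) and 1.05 in males (0.94 to 1.17). Il6r, the ligand-binding subunit, was at only 0.78, 1.28, 1.52 and 1.10 FPKM. Its ratio was 1.65 in males (1.03 to 2.66) and 0.717 in females (0.473 to 1.08), on 31 to 59 fragments. Il6st was 7.18 to 11.8 times as high as Il6r in FPKM.

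Il1rap, the accessory protein of the Il1 and Il33 receptors, was at 4.79, 4.60, 4.33 and 4.01 FPKM, and Il1r1 at 1.12, 0.86, 1.55 and 1.33 FPKM, in control males, BPA males, control females and BPA females. Il1rapl1, a related protein of synapses, was at 1.13, 1.08, 1.28 and 1.46 FPKM. In all 3 genes the BPA and control libraries overlapped. Il12rb2, a subunit of the Il12 receptor, was at 2.01 and 2.06 FPKM in control males and females and at 2.18 and 2.47 FPKM in BPA males and females. Both BPA libraries were above both controls, but both counting intervals included 1.

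Il13ra1, a receptor subunit for Il4 and Il13 on the X chromosome, was at 1.63 FPKM in control males, 2.59 in BPA males, 3.15 in control females and 2.79 in BPA females. Its ratio was 1.6 in males (1.12 to 2.31) and 0.885 in females (0.657 to 1.19). It was the only gene of the set for which new gene models of the same protein were found, and with these 2 models added it was at 2.53, 2.93, 3.64 and 3.40 FPKM, a smaller difference between the male libraries. Il10ra, the ligand-binding Il10 receptor subunit, had 10 fragments in control males and 2 in BPA males, a ratio of 0.201 (0.0214 to 0.941), and 8 and 5 in control females and BPA females. Il21r, listed for females only, had 6 fragments in control and 0 in BPA, with a counting interval of the ratio of 0 to 0.837.

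In the TNF family, the row of Tnf was at 10.8 FPKM in control males, 14.7 in BPA males, 15.1 in control females and 14.2 in BPA females, the male control library being the lowest. Its ratio was 1.37 in males (0.917 to 2.06) and 0.939 in females (0.647 to 1.36). This row is a short model of 542 bases with 45 to 63 fragments, so that it is uncertain how far it stands for the Tnf transcript. Its best protein match in the file is listed as tumor necrosis factor ligand 1f of the mouse. Tnfsf12, which encodes TWEAK, was at 3.14 and 3.35 FPKM in control males and females and at 2.25 and 2.56 FPKM in BPA males and females, with both BPA libraries below both controls on 30 to 44 fragments. Tnfsf13, which encodes APRIL, was at 1.05, 1.12, 1.36 and 1.55 FPKM in control males, BPA males, control females and BPA females, on 15 to 22 fragments.

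Tnfrsf1a, the main receptor of Tnf, was at 7.53 FPKM in control males, 6.18 in BPA males, 7.64 in control females and 5.29 in BPA females. Both BPA libraries were below both controls, with a ratio of 0.691 in females (0.527 to 0.904) and 0.821 in males (0.634 to 1.06). limma gave a combined log2 fold change of -0.35 (standard error 0.15, adjusted p 0.973). Tnfrsf1b, the second Tnf receptor, had 17, 16, 33 and 14 fragments in control males, BPA males, control females and BPA females, a ratio of 0.418 in females (0.207 to 0.803). Here the female control library alone was high.

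Tnfrsf21, which encodes death receptor 6 and acts in axon pruning, was the second most abundant gene of the set, at 34.8, 32.5, 29.5 and 31.2 FPKM in control males, BPA males, control females and BPA females. Tnfrsf19, a receptor of progenitor cells also called Troy, was at 20.9 FPKM in control males and 20.8 in control females, and at 24.5 and 22.3 FPKM in BPA males and females. Both BPA libraries were above both controls, with a ratio of 1.17 in males (1.06 to 1.29) and 1.07 in females (0.965 to 1.19). limma gave a combined log2 fold change of 0.16 (standard error 0.112, adjusted p 0.973). With 1 library left out in turn, the change ranged from 0.09 without the male BPA library to 0.22 without the female BPA library.

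Tnfrsf11b, which encodes osteoprotegerin, a secreted decoy receptor, went opposite ways in the sexes. It was at 1.51 FPKM in control males, 2.44 in BPA males, 2.54 in control females and 1.32 in BPA females. The libraries of BPA males and control females were thus alike, with 60 and 61 fragments, and the other 2 had 37 and 32. The ratio was 1.62 in males (1.06 to 2.52) and 0.517 in females (0.326 to 0.806).

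The TGF-beta ligands and receptors were all above the minimum. Tgfb2 was the most abundant ligand, at 8.35 FPKM in control males, 9.78 in BPA males, 10.1 in control females and 7.47 in BPA females. It was higher in BPA in males, with a ratio of 1.17 (1.02 to 1.35), and lower in females, with a ratio of 0.741 (0.64 to 0.857). Tgfb1 went the other way, at 3.82, 2.48, 3.41 and 4.58 FPKM in the same order, with ratios of 0.648 (0.399 to 1.04) and 1.34 (0.885 to 2.05) on 31 to 57 fragments. Tgfb3 was at 1.85, 2.12, 2.26 and 2.27 FPKM. Tgfb2 was 1.63 to 3.94 times as high as Tgfb1 in FPKM. The receptors were steadier, with Tgfbr1 at 8.72, 8.14, 10.1 and 8.94 FPKM and Tgfbr2 at 5.20, 5.43, 6.12 and 5.65 FPKM, and both were higher in the 2 female libraries than in the 2 male ones.

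Of the NF-kappaB genes, Rela, the p65 subunit, was at 14.9, 15.1, 13.5 and 14.0 FPKM in control males, BPA males, control females and BPA females. Nfkb1, which encodes the p105 precursor of the p50 subunit, was at 3.21, 4.33, 3.14 and 2.35 FPKM. Its ratio was 1.35 in males (1.05 to 1.73) and 0.747 in females (0.554 to 1.005). Its male BPA library was the highest and its female BPA library the lowest. Nfkbia, the inhibitor induced by NF-kappaB, was at 7.80, 6.63, 6.14 and 7.20 FPKM, and each of its counting intervals included 1.

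Over the 39 genes, the counting interval of the ratio lay above 1 in males for 6 (Tnfrsf19, Tgfb2, Nfkb1, Il13ra1, Tnfrsf11b and Il6r), or 15.4%, where it did for 14.4% of all rows. It lay below 1 in males for 1 (Il33), or 2.56%, where 13.8% of all rows did. In females it lay above 1 for 0 of the 39 genes, where 15.2% of all rows did, and below 1 for 7 (Ccl27, Cxcl12, Il6st, Tgfb2, Tnfrsf1a, Csf1 and Tnfrsf11b), or 17.9%, where 21.9% of all rows did. The female control library was the highest of the 4 for 17 of the 39 genes (29.6% of all rows). The female BPA library was the lowest for 14 of them (31.3% of all rows). The part of the meninges and vessel wall markers in the 7 lower genes was not tested. None of the 39 had intervals outside 1 in the same direction in both sexes. Whether an interval excludes 1 depends on the number of fragments. The 39 genes had library medians of 4.39 to 5.20 FPKM, against 10.3 to 10.7 FPKM for all rows. The shares are thus not matched for level.

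**Figure D5:**
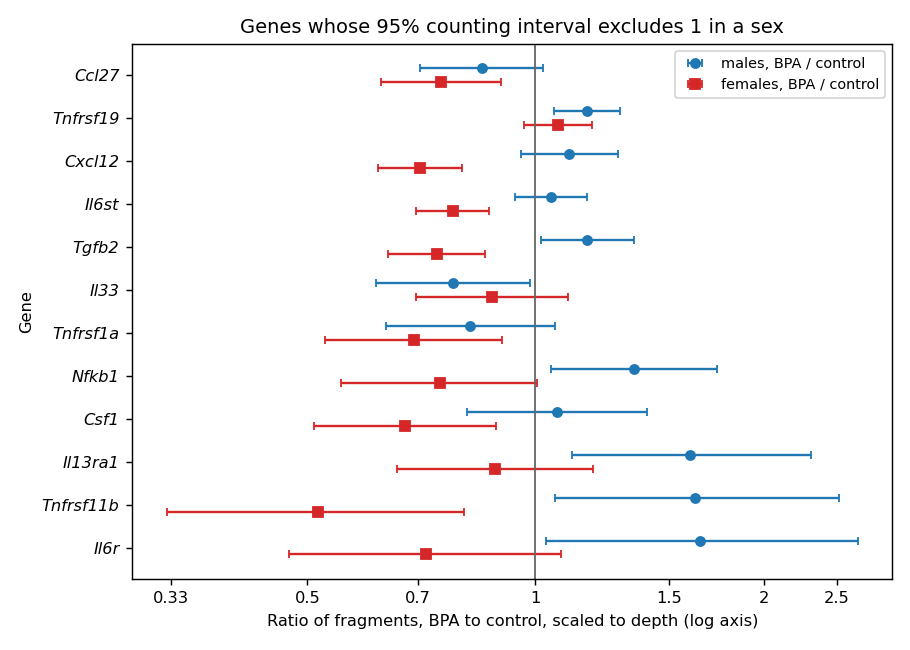
Ratio of fragments, BPA to control and scaled to depth (log axis), in males (blue circles) and females (red squares) for the 12 genes whose 95% counting interval excludes 1 in at least 1 sex. Tgfb2 and Tnfrsf11b lie on opposite sides of 1 in the sexes with both intervals, which cover counting error only.

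Between the sexes, 0 of the 39 genes passed an adjusted p of 0.05 in limma, 2 female libraries against 2 male ones, where 0.00738% of all rows did. At an unadjusted p under 0.05 limma gave 2 of the 39 (5.13%), Il3ra and Cxcl12, where 10.6% of all rows passed. Il3ra, the Il3 receptor subunit, was at 6.03 and 7.23 FPKM in control males and BPA males and at 4.52 and 3.39 FPKM in control females and BPA females, a log2 difference of -0.63 (standard error 0.19, adjusted p 0.359). Both female libraries were below both male libraries. Cxcl12 had a log2 difference of 0.41 (standard error 0.167, adjusted p 0.452), which was 0.17 without the female control library and 0.66 without the female BPA library. Cxcl12 was no longer at an unadjusted p under 0.05 without the female control library or without either male library, and Il3ra was not without either BPA library.

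Choroid plexus markers were unevenly spread over the libraries. The 7 markers summed to 277.5 FPKM in control males, 719 in BPA males, 18.6 in control females and 55.6 in BPA females, and without Ttr, which held most of this in 3 of the libraries, to 21.0, 29.5, 14.6 and 13.2 FPKM. Of the 6 tested, 5 were lower in both female libraries than in both male ones, where 22.5% of all rows were. In limma between the sexes, 0 passed an adjusted and 4 an unadjusted p of 0.05, where 10.6% of all rows passed unadjusted. The sum with Ttr was also higher in each BPA library than in the control of its sex. The part of these markers in the differences of the set was not tested.

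Both female libraries lay above both male libraries for 10 of the 39 genes (25.6%), where 19.8% of all rows did, and below them for 11 (28.2%), where 22.5% of all rows did. By size, the largest such differences were those of Il3ra, Il10rb, Cxcl12, Il13ra1 and Nfkb1. Il10rb, the second Il10 receptor subunit, was at 1.36 and 0.97 FPKM in control males and BPA males and at 2.05 and 1.77 FPKM in control females and BPA females, on 15 to 31 fragments, a log2 difference of 0.43 (adjusted p 0.58 in limma). For Il13ra1 the log2 difference was 0.37 (adjusted p 0.618), and for Nfkb1 it was -0.35 (adjusted p 0.616), both in limma. That of Il13ra1 was 0.14 without the male control library and 0.59 without the male BPA library. That of Nfkb1 was -0.18 without the male BPA library and -0.19 without the female BPA library.

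The 75 genes not tested, 46 with a mean under 1 FPKM and 29 listed for 1 sex only, had at most 33 fragments in any library, and 67 of the 114 had at most 10. Together the 75 genes had 228 fragments in control males, 225 in BPA males, 278 in control females and 195 in BPA females. A gene not listed for a sex added nothing to these sums. The 39 tested had 8697, 8798, 8815 and 8170 fragments in the same order. Blood leukocyte markers were low in every library: the 6 found of 8 summed to 2.83, 4.01, 4.63 and 4.03 FPKM, and Cd3e, which defines T cells, was not among the rows found.

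Genes of related pathways were counted in the same way. Of 52 further cytokines and receptors outside the rule, 39 were found and 19 tested, and of these 0 passed an adjusted p of 0.05 in limma between BPA and control. Eng, a TGF-beta co-receptor of endothelium, was the only one at an unadjusted p under 0.05 in limma, where 4.7% of all rows passed. It was at 9.35 and 8.73 FPKM in control males and females and 7.31 and 5.58 FPKM in BPA males and females. Of the 6 endothelial markers, 3 were lower in both BPA libraries than in both controls, where 19.9% of all rows were. In Kdr, Pecam1 and Flt1 the BPA and control libraries overlapped. Of 44 genes of NF-kappaB, TNF and Toll-like receptor signalling, 38 were found and 25 tested, with 0 at an adjusted and 0 at an unadjusted p under 0.05 in limma. Of 25 JAK, STAT and SOCS genes, 23 were found and 20 tested, with 0 at an adjusted p under 0.05 in limma and 2 at an unadjusted one, Stat5b and Stat2, where 4.7% of all rows passed. Stat5b was at 7.01 and 6.02 FPKM in control males and females and 4.81 and 4.18 FPKM in BPA males and females, and Stat2, an interferon mediator, at 7.12 and 7.43 against 5.40 and 5.25 FPKM. Of 19 genes of TGF-beta and SMAD signalling, 16 were found and 14 tested, with 0 at an adjusted and 0 at an unadjusted p under 0.05 in limma.

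The promoters of 4 genes are shown because they stand for the abundant and the nearly silent members of the set: Cxcl12 and Cxcr4, the developmental pair, Nfkbia, the NF-kappaB target that was well detected, and Cxcl10, the interferon-induced chemokine that was nearly absent. Sequences are from RefSeq on the assembly GRCr8, 250 bases before to 50 bases after the start of transcription, 5′ to 3′ on the strand of the gene. Capitals mark matches to the kappaB consensus (of the name NF-kappaB, either strand, overlapping matches merged) and to TATAAA (strand of the gene only).
Cxcl12: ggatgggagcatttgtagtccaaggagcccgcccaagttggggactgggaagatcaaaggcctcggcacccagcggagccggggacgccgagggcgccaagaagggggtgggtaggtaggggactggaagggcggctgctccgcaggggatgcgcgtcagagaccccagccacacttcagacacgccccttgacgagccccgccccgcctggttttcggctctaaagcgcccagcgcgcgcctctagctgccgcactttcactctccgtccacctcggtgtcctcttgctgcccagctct
Cxcr4: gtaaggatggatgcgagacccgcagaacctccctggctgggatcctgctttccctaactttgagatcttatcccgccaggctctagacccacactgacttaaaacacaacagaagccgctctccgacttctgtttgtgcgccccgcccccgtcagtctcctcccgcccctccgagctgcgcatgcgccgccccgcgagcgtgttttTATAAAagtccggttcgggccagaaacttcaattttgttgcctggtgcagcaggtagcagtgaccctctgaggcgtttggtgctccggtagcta
Nfkbia: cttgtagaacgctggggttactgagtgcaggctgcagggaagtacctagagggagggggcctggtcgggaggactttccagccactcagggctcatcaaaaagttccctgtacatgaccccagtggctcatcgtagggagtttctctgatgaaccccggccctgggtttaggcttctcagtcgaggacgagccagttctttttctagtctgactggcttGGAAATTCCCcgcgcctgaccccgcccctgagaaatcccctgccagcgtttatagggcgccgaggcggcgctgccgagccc
Cxcl10: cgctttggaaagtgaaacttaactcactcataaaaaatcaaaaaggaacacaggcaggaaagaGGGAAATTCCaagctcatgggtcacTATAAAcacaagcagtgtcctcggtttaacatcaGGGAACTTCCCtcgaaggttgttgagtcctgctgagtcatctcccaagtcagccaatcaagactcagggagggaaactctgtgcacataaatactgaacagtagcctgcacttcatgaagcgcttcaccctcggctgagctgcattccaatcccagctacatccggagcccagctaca
They lie at chr4:152060531-152060830 on the plus strand (Cxcl12), chr13:42634239-42634538 on the minus strand (Cxcr4), chr6:78597023-78597322 on the minus strand (Nfkbia) and chr14:15988816-15989115 on the plus strand (Cxcl10).

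The Cxcl12 window had 23 CG pairs and neither motif, and that of Cxcr4 had 20 CG pairs and TATAAA at position -44 from the start. The window of Nfkbia had 15 CG pairs and 1 kappaB match, at -31. That of Cxcl10 had only 6 CG pairs but 3 kappaB matches, of which 2 overlap, and TATAAA at -162. A match is a description of letters, not of a bound factor.

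Promoters were found in the RefSeq table for 86 of the 114 genes (89 promoters). The median number of CG pairs per window was 16 for the promoters of genes tested and 4 for those of genes not tested, where it was 21 and 7 for all gene IDs of the files split the same way. A kappaB match was in 27.8% of the promoters of genes tested and in 13.2% of those of genes not tested, where 9.75% and 9.68% of the promoters of all gene IDs split the same way had one, and 7.51% of all 33469 promoters of the table. Among the matches were the promoters of Nfkb1, Nfkbia, Tgfb1, Tgfbr1, Il6st, Il1rap, Il1r1 and Il12rb2 among the genes tested and of Cxcl1, Cxcl10, Ccl7 and Ccl20 among those nearly absent. TATAAA was in 11.1% of the promoters of genes tested and in 17.0% of those of genes not tested, where it was in 4.20% and 9.48% of those of all gene IDs split the same way, and in 8.80% of the table.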

How the data were processed

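The study sequenced hippocampal RNA of neonatal Wistar rats, as a pool of 3 hippocampi and 1 library for control males, BPA males, control females and BPA females. The authors deposited 1 FPKM value per gene and library, with 0.01 as the lowest value. The submitters' processing notes name HISAT 0.1.6, Bowtie2 2.2.5, RSEM and the build rn6, and whether the counting used strand is not given in the sources used here. The depth was estimated from steps in the low values: at 8660000 to 8880000 fragments per library, 95.6% to 98.6% of them lay within 0.15 of a whole fragment. For a gene of 1 kb, 1 FPKM then stands for 8.14 to 8.26 fragments. Ratios of these fragments carry exact 95% counting intervals.

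Fold changes are differences of log2(FPKM + 1), a scale on which changes of low genes come out too small, over rows listed in all 4 libraries with a mean of at least 1 FPKM. Both sexes together were tested in limma 3.58.1 (R 4.3.3, eBayes with trend, two-sided) with Benjamini-Hochberg adjustment over 13542 rows, 2 libraries against 2, without covariates. Nothing in the labels names replicate libraries of a group, so these p-values measure the spread between libraries that also differ in sex or treatment. Python 3.11.15 (numpy 2.4.6, pandas 2.3.3, scipy 1.17.1, matplotlib 3.10.9) was used for the rest. The limma fit and the depth estimate were tested on simulated data.

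Genes were named if they had a mean of at least 10 FPKM, were among the 5 largest rises or falls shared by the sexes, the 5 largest differences between the male and female change or the 5 largest non-overlapping differences between the sexes, belonged to a list of 33 well-known genes, or had counting intervals outside 1 in both sexes in 1 direction or past 2-fold. Other genes (Ccl19, Il1rn, Il1rl1, Il11, Il11ra1, Il16 and Ccr10) were named after their values were seen, or as ligands or receptors of named genes. Ccl7, Cxcl1, Cxcl9, Ccl20 and Cxcl17 were also named outside the rule, in a sum, for a promoter match or for a change on few fragments. The members and the lists were chosen with earlier results of these data known. The RefSeq gene table of GRCr8 held all 114 gene IDs. It was used for names and neighbours only, and 16 of the 39 genes tested overlap another gene there. The alternatives were quantile normalization, a pseudocount of 0.1, no filter, a mean of at least 5 FPKM, new gene models added, sex or treatment as a covariate, an unadjusted p and leaving out each library.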

Additional observations from a re-analysis of the deposited data

Results flagged for a closer look

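In 5 of the 39 genes tested (12.8%), the male and the female change had opposite signs and counting intervals that did not overlap, where 11.6% of all 13542 rows did. The difference between the sexes was not tested, since each sex has 1 library per treatment. For Cxcl12 the change on the log2 scale was 0.141 in males and -0.487 in females. Il6st had 0.0637 in males and -0.329 in females. Tnfrsf11b had 0.455 in males and -0.61 in females. Nfkb1 had 0.34 in males and -0.305 in females. Tgfb2 had 0.205 in males and -0.39 in females.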

How the results depend on the processing

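Of 44 alternative values for the counts that answer a comparison, 37 stayed within 1.5 times the main count, and the number of genes past an adjusted p of 0.05 in limma was 0 of those tested under every setting run, leaving out each library included. At an unadjusted p in limma it was 1 for BPA and 2 for sex. A pseudocount of 0.1 put 2 genes past a log2 fold change of 1 in females (main 0), Ccl19 and Cxcl17, which have at most 10 fragments. The number of genes with both BPA libraries on 1 side of both controls was 7 of 39 (33.6% of all rows), and it was 20 of 85 without a filter (33.3% of all rows) and 4 of 20 at a mean of at least 5 FPKM (33.2%). It was 24 of 39 without the female control library, an alternative chosen after seeing the data whose criterion 67.4% of all rows met with 3 libraries. With both female libraries on 1 side of both male ones, the number was 21 of 39, where 19.8% of all rows lay above and 22.5% below. It was 11 of 20 at a mean of at least 5 FPKM, where fewer genes are tested and the share of all rows was not counted. Of 152 values for single genes and medians, 146 kept their sign and side, 1 moved (the female median, -0.02 after quantile normalization) and 5 reversed. Without 1 library in turn, the combined log2 fold change ranged from -0.030 to 0.11 for Rela (-0.014 without male BPA), from -0.030 to 0.16 for Tgfb3 and from -0.053 to 0.21 for Tnfsf13 (-0.022 without male control). By replicate number, no paired analysis was possible because the groups share only the number 1. With sex as a covariate, which sets each BPA library against the control of its sex, 0 of 39 genes passed in limma (smallest adjusted p 0.444), and 2 of all rows did. With 1 pool per group, animals cannot be compared, and a gene with fewer than 10 fragments gives only a wide interval.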
